A study of Mus musculus with 11 samples.

Results

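The miR-23, miR-27 and miR-24 miRNAs are made from 2 paralogous gene clusters of the mouse, an a locus with the hairpins Mir23a, Mir27a and Mir24-2 and a b locus with Mir23b, Mir27b and Mir24-1. Members were taken by name from the small RNA tables, as every entry with the stem miR-23a, miR-23b, miR-27a, miR-27b or miR-24 on either arm, which gave 11 of 1096 mature miRNAs. The hairpins of a cluster are transcribed together, cut out of the primary transcript in the nucleus and diced in the cytoplasm, after which mostly a single arm of each hairpin is kept by an Argonaute protein. miR-27 is known for repressing the adipogenic regulator Pparg, miR-24 for restraining cell cycle genes, and miR-23a for repressing glutaminase. MOV10 is an RNA helicase that has been found with Argonaute proteins, and the study asked how its loss changes the small RNAs of male germ cells.

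Small RNAs of spermatogonial progenitor cells (SPCs) were sequenced as 1 library of control cells and 1 library of knockdown cells. Control cells received the pLKO.1 control lentivirus (shVector, labelled Mov10 Vector). Knockdown cells are labelled Mov10 knockdown without a named shRNA, and shMov10-832 is taken from the methods, which name it for the RNA-seq libraries. The labels of both give testis of C57BL/6 mice at postnatal day 6, whereas the methods describe Thy1-positive cells of B6;129S-Gt(Rosa)26Sor/J pups of 6 to 8 days, grown on STO embryonic fibroblast feeders that may add their own miRNAs. The methods speak of triplicate samples, and whether these were pooled is not stated, so no value has a replicate error and no difference was tested between cultures. The control library held 9628835 miRNA reads and the knockdown library 2794593. TPM is the number of reads per 1000000 of each library's own total, so a loss shared by all RNAs does not show in it, and a single read corresponds to 0.0951 TPM for the control and 0.313 TPM for the less deeply sequenced knockdown. Confidence intervals below are 95% intervals of counting error only, and Mov10 mRNA itself is not measured by small RNA libraries.

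The members took 148545 reads in control SPCs, which is 1.54% of all miRNA reads (Wilson interval 1.53 to 1.55%), and 57464 reads in the knockdown, which is 2.06% (2.04 to 2.07%). miR-27b-3p alone supplied most of them in both libraries. The b locus, without miR-24-3p, held 87.5% of the member reads of the control and 86.5% of those of the knockdown. The a locus held 10.6% and 11.9%. The remaining 1.96% and 1.60% were miR-24-3p, whose single entry lists both Mir24-1 and Mir24-2 and cannot be divided between the loci.

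On GRCm38, the a locus lies on the plus strand of chromosome 8, with Mir23a at chr8:84208518-84208592, Mir27a at chr8:84208672-84208758 and Mir24-2 at chr8:84208815-84208921. The 3 hairpins fill 404 bases, with 79 and 56 bases between neighbours. In GENCODE vM21 no gene on the same strand contains the a locus, and the noncoding gene Gm26532 starts inside the last 2 bases of Mir24-2 and runs away from it. The b locus lies on the plus strand of chromosome 13, with Mir23b at chr13:63300484-63300557, Mir27b at chr13:63300712-63300784 and Mir24-1 at chr13:63301208-63301275. It is more spread out, with 792 bases from end to end and gaps of 154 and 423 bases. All 3 hairpins lie in intron 15 (63298857 to 63301778, 2922 bases) of the 16-exon transcript 2010111I01Rik-201, whose gene is named Aopep in RefSeq and encodes an aminopeptidase. Fancc overlaps the locus on the minus strand.

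The intronic position of the b locus depends on the transcript. The nonsense-mediated decay transcript 2010111I01Rik-209 has an exon over all 73 bases of Mir27b and over 25 bases of Mir24-1, and 2010111I01Rik-205 has an exon over all 68 bases of Mir24-1. The primers that the study designed for splicing at this place were located by their sequences. The outer pair matched exon 15 (63298825 to 63298844) and exon 16 (63301780 to 63301807) of 2010111I01Rik-201. The inner forward primer matched 63301256 to 63301275, inside Mir24-1. Splicing itself was not analysed here.

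**Figure D1:**
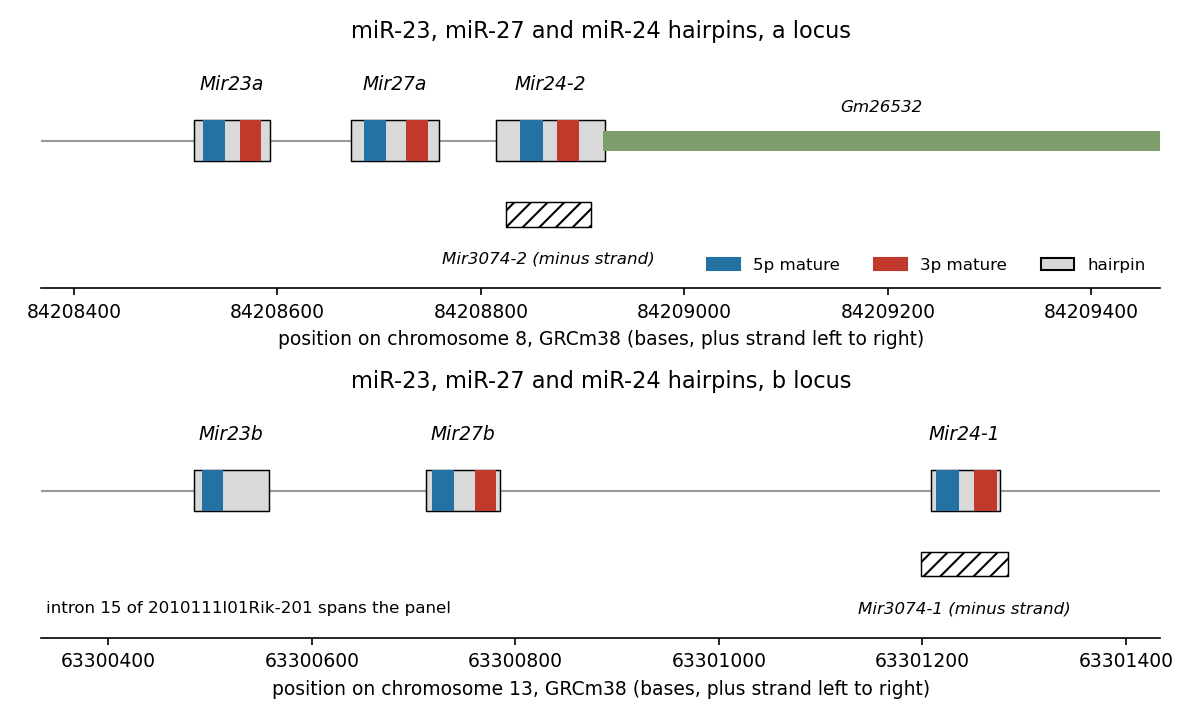
Maps of the a locus on chromosome 8 and the b locus on chromosome 13 (GRCm38), drawn to the same scale with position in bases on the horizontal axis. Grey boxes are hairpins, blue and red are 5p and 3p mature miRNAs as placed by RefSeq, hatched boxes are hairpins on the opposite strand, and the green bar is Gm26532. The a locus spans 404 bases and the b locus 792.

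Mature sequences for 10 of the 11 members were taken from RefSeq (GRCm38.p6), and none was at hand for miR-23b-3p. The 3p miRNAs that carried most reads are shown 5′ to 3′ with the seed, bases 2 to 8, in capitals, because the seed sets which mRNAs a miRNA can pair with.
miR-27a-3p: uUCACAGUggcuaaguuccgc
miR-27b-3p: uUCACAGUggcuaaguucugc
miR-23a-3p: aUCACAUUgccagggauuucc
miR-24-3p: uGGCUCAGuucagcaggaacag
miR-27a-3p and miR-27b-3p share their seed and are identical over the first 18 bases, with C19U as the only difference from the a to the b form (positions counted from the 5′ end). Of the 908 miRNAs in the tables with a mature sequence, none of another family had the same bases 2 to 8 as these 4. Reads were mapped without mismatch, and how the authors assigned reads too short to reach a differing base is not stated, so the division of reads between paralogues rests on their mapping.

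In control SPCs miR-27b-3p had 127701 reads (12141 TPM, interval 12074 to 12208) and was the 21st most abundant miRNA, and in the knockdown it had 49146 reads (15385 TPM, 15250 to 15522) and was the 13th. miR-27a-3p followed with 8991 control reads (855 TPM) and 4527 knockdown reads (1417 TPM). miR-23a-3p came next with 4305 and 1451 reads (409 and 454 TPM). These 3 kept the top of the order among the members in both libraries, and their intervals did not overlap each other. miR-24-3p had 2916 and 921 reads (277 and 288 TPM) and miR-23b-3p 1348 and 405 reads (128 and 127 TPM). Reads of different miRNAs are captured with unequal efficiency, so this order is an order of reads.

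The partners of a cluster were far from equal, although they come from a common transcript. Within the b locus, miR-27b-3p had 94.7 reads per read of miR-23b-3p in control SPCs and 121 after knockdown. Within the a locus, miR-27a-3p had 2.09 reads per read of miR-23a-3p in control SPCs and 3.12 after knockdown. In both clusters miR-27 thus gained on miR-23 between the libraries, by 0.58 on the log2 scale for the a locus (0.48 to 0.68) and 0.36 for the b locus (0.20 to 0.52). These ratios within a library do not depend on its total. By reads as the authors assigned them, the families had opposite main sources in the control. There, miR-23a-3p had 3.19 reads per read of miR-23b-3p, and miR-27a-3p only 0.0704 reads per read of miR-27b-3p.

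The 5p arms were mostly minor. miR-27b-5p had 792 control reads (75.3 TPM) and 141 knockdown reads (44.1 TPM), and miR-27a-5p had 533 (50.7 TPM) and 143 (44.8 TPM). The intervals of these 2 were apart in the control and overlapped in the knockdown. miR-23a-5p had 10 and 4 reads, and miR-23b-5p had 2 control reads and 0 knockdown reads, both under the 3 reads taken as the smallest detectable level (0.939 TPM in the knockdown), so for miR-23b-5p no fold change is given. The 95% Poisson interval of its 0 knockdown reads reaches 1.15 TPM. The exception was miR-24, whose 5p arm from the a locus, miR-24-2-5p, had 1887 and 720 reads (179 and 225 TPM). For each read of miR-24-2-5p there were only 1.55 reads of miR-24-3p in control SPCs and 1.28 after knockdown.

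**Figure D2:**
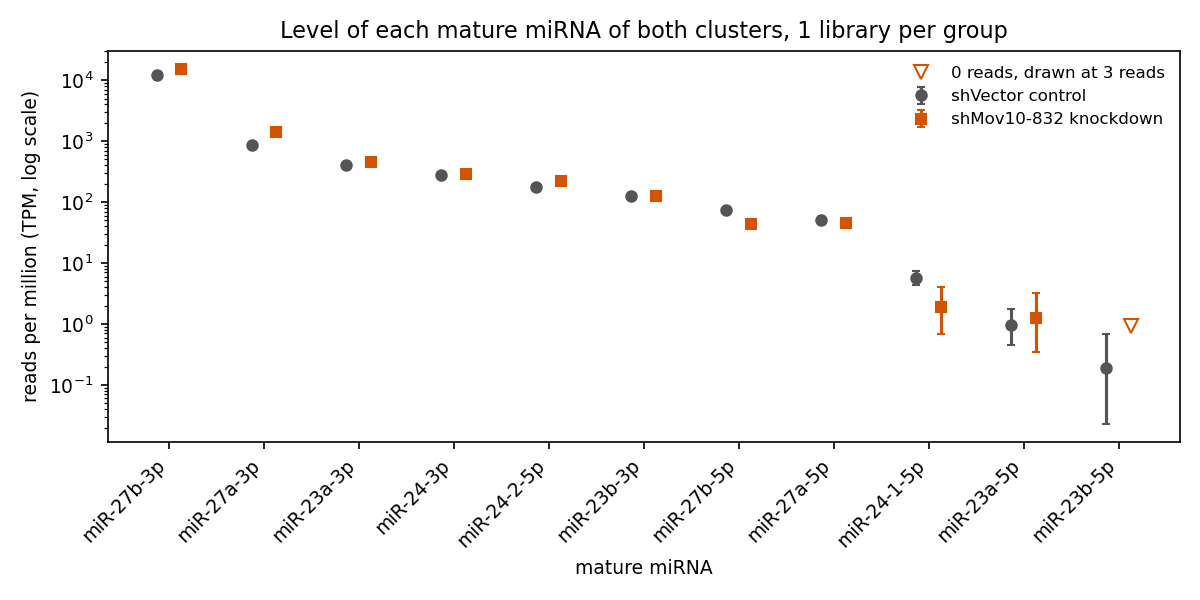
Level of each of the 11 mature miRNAs in TPM (log scale) in the shVector control library (grey circles) and the knockdown library (orange squares, shMov10-832 as read from the methods), with 95% Poisson intervals of counting error. The open triangle marks 0 reads, drawn at the value of 3 reads. miR-27b-3p lies highest at 12141 and 15385 TPM, and miR-23b-5p lowest.

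Fold changes were calculated as log2 of TPM + 0.1 in the knockdown over TPM + 0.1 in the control. A miRNA was counted as lowered or raised when its TPM differed over 1.5-fold and exceeded 1.5 TPM in at least 1 library. Of the 11 members, 9 exceeded that minimum, and miR-23a-5p and miR-23b-5p did not. Of these 9, 2 were lowered, against 41.7% of the 607 miRNAs above the minimum, and 1 was raised, against 16.0%. The other 6 changed less. With so few members, neither count stands apart from the background shares.

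The raised member was miR-27a-3p, with a log2 fold change of 0.73 (0.68 to 0.78) that turned to -0.99 when the reads of both libraries were compared without scaling to their own totals. Leaving out the scaling shifts the plain ratio of every miRNA with reads in both libraries by -1.72, the log2 ratio of the library totals, and the pseudocount makes this shift smaller for miRNAs with few reads. It lowered 561 of 581 miRNAs, so such a turn is not particular to any member. The lowered members were miR-27b-5p at -0.77 (-1.04 to -0.51) and miR-24-1-5p at -1.55 (-3.10 to -0.40), the latter on 60 and 6 reads. After scaling by TMM factors or by the median ratio, miR-27b-5p no longer passed 1.5-fold, and miR-24-1-5p was not counted with a minimum of 10 TPM. Both lowered members are thus 5p arms of the b locus and the raised member is a 3p arm of the a locus. In bulk libraries, fewer cells of a type and less RNA per cell cannot be told apart.

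Between these lay miR-27b-3p at 0.34 (0.33 to 0.36), miR-24-2-5p at 0.33 (0.20 to 0.45) and miR-23a-3p at 0.15 (0.06 to 0.24), whose values all turned negative when reads were compared without scaling. Scaling by the median ratio put miR-27b-3p at 0.59, past 1.5-fold. With the deposited TPM, the intervals of miR-24-3p at 0.06 (-0.05 to 0.16), miR-23b-3p at -0.02 (-0.18 to 0.15) and miR-27a-5p at -0.18 (-0.46 to 0.09) included 0. Scaling by the median ratio or TMM moved miR-24-3p to 0.31 or 0.27 and miR-23b-3p to 0.24 or 0.20, outside these intervals, and turned miR-27a-5p to 0.07 or 0.04, which is within its interval. The interval also included 0 for miR-23a-5p at 0.36 (-1.73 to 2.19). The median of the 9 members above the minimum was 0.06, and that of all 607 miRNAs was -0.37. Scaling by the median ratio moved the median of all miRNAs to -0.12, TMM moved it to -0.15, and comparing reads without scaling moved it to -2.07. With the deposited TPM, 7 of the 9 members lay above the median of all miRNAs, from miR-27a-3p at 1.09 above it to miR-27a-5p at 0.19 above it. A median splits the 607 miRNAs evenly by definition. With so few members, some of them arms of the same hairpin, this count does not stand apart from an even split.

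The 11 members summed to 14123 TPM in control and 17989 TPM in knockdown SPCs, a log2 fold change of 0.35 (0.34 to 0.36) that turned to -1.37 without scaling. This sum mostly follows miR-27b-3p. Without it, the other 10 gave 0.39 (0.36 to 0.43) with the deposited TPM. That value in turn leans on the raised miR-27a-3p, which held 8991 of their 20844 control reads and 4527 of their 8318 knockdown reads. By family, the log2 fold change was 0.36 for miR-27 (0.35 to 0.38), 0.11 for miR-23 (0.04 to 0.19) and 0.16 for miR-24 (0.08 to 0.24), all of which are negative without scaling.

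The a and b loci were compared by the ratio of their reads within each library. The a locus had 15726 reads against 129903 of the b locus in the control, a ratio of 0.121, and 6845 against 49698 in the knockdown, a ratio of 0.138. The ratio was thus 0.19 higher on the log2 scale in the knockdown (0.14 to 0.23). Every pair of corresponding arms with over 3 reads in each library moved towards the a locus, by unequal amounts. For miR-27-3p the change was 0.39 (0.33 to 0.44), and for miR-27-5p, where the ratio went from 0.673 to 1.01, it was 0.59 (0.21 to 0.97). For miR-23-3p it was 0.17, and its interval (-0.02 to 0.35) included 0.

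The widest gap between the loci was that of the miR-24 5p arms. In the control, miR-24-2-5p of the a locus had 1887 reads and miR-24-1-5p of the b locus had 60, a ratio of 31.4. In the knockdown they had 720 and 6 reads, a ratio of 120. The log2 change was 1.93, with an interval of 0.72 to 3.44 that reflects the 6 reads. The hairpins are shown with both mature arms in capitals, because they hold the same miR-24-3p beside 5p arms with unequal reads.
Mir24-1: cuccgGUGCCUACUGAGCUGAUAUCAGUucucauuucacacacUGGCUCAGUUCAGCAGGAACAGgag
Mir24-2: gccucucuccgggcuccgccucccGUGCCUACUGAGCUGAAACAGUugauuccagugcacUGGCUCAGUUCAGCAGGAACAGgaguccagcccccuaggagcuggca
The 5p arms are identical over their first 16 bases, so they share the seed UGCCUAC and differ only towards the loop. The reads of miR-24-3p hold no mark of their locus, and its split between Mir24-1 and Mir24-2 was not measured.

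The arms of the miR-27 hairpins moved apart between the libraries. The 5p arms are shown with the seed in capitals, because they fell behind their 3p partners at both loci.
miR-27a-5p: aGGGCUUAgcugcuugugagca
miR-27b-5p: aGAGCUUAgcugauuggugaac
Unlike the 3p arms, the 5p arms of the paralogues have different seeds. Per read of miR-27a-5p there were 16.9 reads of miR-27a-3p in control SPCs and 31.7 after knockdown, a log2 change of 0.91 (0.64 to 1.18). Per read of miR-27b-5p there were 161 reads of miR-27b-3p in control SPCs and 349 after knockdown, a log2 change of 1.11 (0.85 to 1.37). The 2 intervals overlapped, so a difference between the loci in this shift was not detectable at this depth.

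This comparison was set beside other hairpins, with a minimum chosen after the values were seen. Among the 118 miRNA names with at least 50 control reads on both arms, the median change of the 3p to 5p ratio was -0.01, with quartiles at -0.53 and 0.42 and extremes of -2.08 and 1.76. miR-27b ranked 4 and miR-27a ranked 10 from the top. For miR-24 the ratio moved the opposite way, from 2916 reads of miR-24-3p against 1947 of both 5p arms in the control to 921 against 726 after knockdown, a log2 change of -0.24 (-0.40 to -0.07). Summed over all members, the 3p to 5p ratio went from 44.2 to 55.7, a change of 0.33 (0.23 to 0.43) that combines these opposite directions. For miR-23a, with 4 reads of the 5p arm in the knockdown, the interval of the change ran from -2.04 to 1.88.

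**Figure D3:**
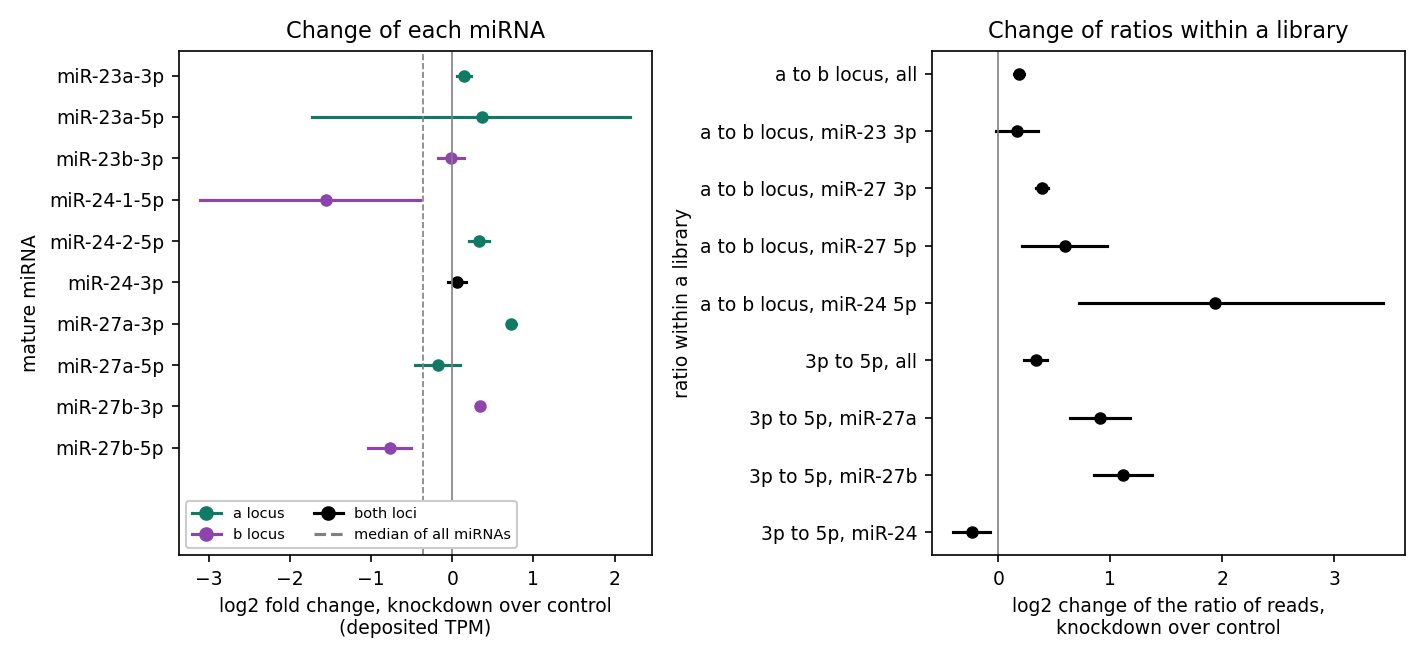
Left, log2 fold change of TPM in knockdown over control for each member except miR-23b-5p, coloured by locus, with the median of all 607 miRNAs (-0.37) as a dashed line; without scaling to library totals values shift by up to -1.72 and all lie below 0. Right, log2 change between the libraries of the ratios of a to b locus reads and of 3p to 5p reads, which do not depend on scaling. Points are values and lines 95% intervals of counting error, and all ratios shown except miR-24 3p to 5p lie above 0.

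Both miR-24 hairpins have a hairpin annotated on the opposite strand, Mir3074-2 at chr8:84208825-84208907 and Mir3074-1 at chr13:63301199-63301283. Their shared product miR-3074-5p (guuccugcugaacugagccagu) overlaps miR-24-3p by 20 bases on the other strand and was picked out after its values were seen. It had 3709 control and 1098 knockdown reads (353 and 344 TPM, log2 fold change -0.04, -0.14 to 0.06). It thus had more reads than miR-24-3p in both libraries, with 1.27 and 1.19 reads per read of miR-24-3p. The change of this ratio, -0.09 (-0.24 to 0.05), was within counting error.

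miR-128-3p, also picked out after its values were seen, belongs to another family, but its bases 1 to 7 are UCACAGU, the seed of miR-27. It had 4775 control and 748 knockdown reads, a log2 fold change of -0.95 (-1.07 to -0.84), whereas miR-27a-3p and miR-27b-3p had positive values with the deposited TPM. Without scaling, all 3 are negative. In reads, the knockdown had 0.157 times those of the control for miR-128-3p, 0.504 times for miR-27a-3p and 0.385 times for miR-27b-3p.

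The 5 miRNAs of other families nearest to each of 3 members were found by the distance of log2 TPM over the 2 libraries. Closeness of their fold changes to that of the member therefore follows from the choice. Nearest to miR-24-3p were miR-872-3p, miR-210-3p, miR-222-3p, let-7d-3p and miR-421-3p, with log2 fold changes from -0.14 to 0.40. Nearest to miR-23a-3p were miR-6539, miR-872-5p, miR-106b-3p, miR-99a-5p and miR-378c, at distances of 0.11 to 0.25. The neighbours of miR-27b-3p were farther off, at 0.35 to 0.50, and were miR-30e-5p, miR-181a-5p, miR-25-3p, miR-34c-5p and miR-99b-5p. They were among the abundant miRNAs of these cells, and their log2 fold changes ran from -0.25 for miR-25-3p to 0.89 for miR-34c-5p.

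The miR-29 family also comes from a pair of clusters, and its 3p forms lay close together, with log2 fold changes of 0.69 for miR-29a-3p, 0.68 for miR-29b-3p and 0.71 for miR-29c-3p. Their reads rose relative to the 5 3p members of the miR-23, miR-27 and miR-24 clusters by 0.33 on the log2 scale (0.30 to 0.37). The gap was 0.47 (0.43 to 0.50) for miR-221-3p and miR-222-3p, whose own values were 0.88 and 0.24. The miR-23, miR-27 and miR-24 3p forms, which belong to different families, ranged from -0.02 for miR-23b-3p to 0.73 for miR-27a-3p. This is wider than the range of the single miR-29 family. Within families, the 3p values were 0.15 and -0.02 for miR-23a and miR-23b, and 0.73 and 0.34 for miR-27a and miR-27b.

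Lists of miRNAs typical of germ cells and of other cell types were compared in the same way. All 10 miRNAs of a feeder or mesenchymal list, among them miR-143-3p and miR-199a-3p, were present in both libraries. Their summed level went from 174521 to 270564 TPM, with miR-21a-5p the most abundant (51967 and 107056 TPM), and 2 were raised and 0 lowered, against 16.0% and 41.7% of all 607 miRNAs above the minimum. The median log2 fold change of the list was 0.47, against -0.37 for all miRNAs above the minimum, and its values ran from -0.42 for miR-214-3p (-0.52 to -0.32) and -0.20 for miR-145a-5p to 0.93 for miR-199b-5p and 1.04 for miR-21a-5p. miR-21a-5p, which spermatogonia also make, weighs most in the sum, and its unscaled reads in the knockdown were 0.626 times those in the control. Next came miR-22-3p (50580.5 and 70510.5 TPM) and miR-10b-5p (43283 and 59217 TPM). The sum mostly follows these and miR-21a-5p, and the share that feeder cells add to it was not measured. Of 15 germ and stem cell miRNAs, 13 exceeded the minimum, 9 were lowered, against the same 41.7%, and 0 were raised, and the sum went from 153940 to 111120 TPM, led by miR-182-5p (142065 and 103395 TPM). Of 6 blood miRNAs, 3 exceeded the minimum and 2 were lowered, against the same 41.7%, and these 2 are the arms of miR-142a. The other counted miRNA, miR-150-5p, was at -0.34 (-1.51 to 0.67). The blood sum went from 176 to 35.1 TPM and mostly follows miR-142a-5p (158 and 28.8 TPM). The 2 endothelial miRNAs had nearly the same value on either side of the 1.5-fold threshold, miR-126a-3p at -0.60 (-0.83 to -0.37) and miR-126a-5p at -0.58 (-0.68 to -0.49), and their sum went from 592 to 395 TPM.

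None of the listed miRNAs was at 0 in either library. miR-143-3p, typical of mesenchymal cells, had 18362 TPM in the control and 20113 in the knockdown (log2 fold change 0.13, 0.12 to 0.14), and miR-145a-5p from the same cluster had 114 and 99.6 TPM. With the deposited TPM, the summed feeder or mesenchymal list had a log2 ratio of 0.63 between the libraries, the summed germ and stem cell list -0.47, and the 11 members 0.35. Scaling by the median ratio shifts each of these by 0.25. Leaving out the scaling shifts each by -1.72, which makes all of them negative. The germ and stem cell sum mostly follows miR-182-5p at -0.46, against a median of -0.37 for all miRNAs above the minimum. The part of these differences between the lists in the changes of miR-23, miR-27 and miR-24 was not tested.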

How the data were processed

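Small RNA-seq of shVector control and knockdown SPCs (shMov10-832 as read from the methods) was compared, 1 library per group. The authors removed rRNA reads and adaptors and used CLC Genomics Workbench to map to miRBase with no mismatch. For every mature miRNA the authors deposited a read count. TPM, also deposited, is the reads per 1000000 of a library total whose content is not stated. Reads divided by TPM gave totals of 10518277 for the control and 3194363 for the knockdown.

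Calls used the plain ratio of TPM. Fold change intervals are exact Clopper-Pearson intervals given both totals. Ratio changes have exact conditional intervals where the 4 counts sum to under 10000, otherwise Woolf's. No p-value is given. The members, lists and comparisons were chosen with earlier results of these data known. Named miRNAs are all members, the 5 nearest of 3 members, miRNAs sharing a seed, the cell type lists, miR-29 and miR-221 with miR-222. The miR-3074 products and miR-128-3p were added after their values were seen. Hairpins were placed with RefSeq and GENCODE vM21. Alternatives were other scalings (edgeR 4.0.16 TMM among them), pseudocounts, minima and thresholds, and ratios over parts of the members. The RNA-seq and CLIP-seq libraries were not analysed here. Software was R 4.3.3 and Python 3.11.15 with scipy 1.17.1, pandas 2.3.3, numpy 2.4.6 and matplotlib 3.10.9.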

Additional observations from a re-analysis of the deposited data

How the results depend on the processing

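With 1 small RNA library in each group, no paired analysis was possible and leaving out replicates could not be run. With the deposited TPM, the 9 members above the minimum gave 2 lowered and 1 raised and a median log2 fold change of 0.06. The summed change, here and below over all 11 members, was 0.35. Scaling by miRNA reads moved the summed change to 0.41. Scaling by the median ratio gave 1 lowered and 2 raised members (193 and 147 of all 607 miRNAs), a median of 0.31 and a summed change of 0.60, and TMM gave 1 lowered and 1 raised member (203 and 142 of 607), 0.27 and 0.57. Comparing reads with 1 common total gave 9 lowered and 0 raised members, as for nearly all miRNAs (561 and 10 of 581), a median of -1.66 and a summed change of -1.37, and miR-27a-3p turned to -0.99, since this sets aside the difference in library totals. A minimum of 10 TPM left 1 lowered and 1 raised member (157 and 53 of 393), and a 2-fold threshold left 1 lowered and 0 raised (163 and 43 of 607). With no minimum, 3 of the 11 members were lowered and 1 raised (579 and 208 of 1096). The added one was miR-23b-5p, on 2 control and 0 knockdown reads. The median of all miRNAs was then -0.64. A pseudocount of 1 TPM left all 11 members' values within their intervals.

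The a to b locus ratio changed by 0.19 over all arms, by 1.05 over 5p arms and by 0.35 over miR-27. The 3p to 5p ratio changed by 0.33 over all members, by 0.73 over miR-23 and miR-27 of the a locus, by 1.11 over those of the b locus, and by -0.24 over miR-24, the cause of which was not tested. At 0.313 TPM per knockdown read, changes of miR-23a-5p and miR-23b-5p cannot be resolved.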
